A study of Mus musculus with 24 samples.

Results

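The genes that carry a cell from G1 into S phase were followed in mouse liver RNA-seq. The set held the D-type cyclins Ccnd1, Ccnd2 and Ccnd3, their kinases Cdk4 and Cdk6, the E-type cyclins Ccne1 and Ccne2, the kinase inhibitors Cdkn1b and Cdkn2c, and the pocket protein gene Rbl1. These 10 genes were listed by name among the 24411 genes in the count files, with earlier results of these data known, and each file of the 24 libraries gave a count for all 10. Ccne1 had 0 reads in 1 library and the others had at least 1 read in each. Whole-liver poly(A) RNA was sequenced, so fewer cells of a type and less RNA per cell cannot be told apart for any gene below.

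All mice were male and carried floxed E2f7 and E2f8 (E2f7/E2f8 loxP/loxP) with the R26R-mTmG reporter, the LKO line on a mixed and mostly FVB background. LKO mice also carried Alb-Cre, which deletes both genes in the liver from development onward and yields livers rich in diploid hepatocytes, while their control littermates lacked Cre. HKO mice received AAV8-TBG-Cre at 2 months of age, so that deletion occurred in adult hepatocytes, and their controls received AAV8-TBG-Null. The mice were 2.5 months old and were fasted for about 16 h, also those that received no drug in the LKO cohort. At 0 h, without acetaminophen (APAP), there was 1 library per mouse from 3 HKO mice, 3 HKO control mice, 4 LKO mice and 4 control mice. At 12, 24, 48, 72 and 96 h after 300 mg/kg APAP, there was 1 control library and 1 LKO library per time point, each made from RNA of 3 mice pooled. A pool gives a value without an error of its own, and no HKO library after APAP was analysed here.

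D-type cyclins are made in response to growth signals and bind CDK4 or CDK6, and these kinases phosphorylate the retinoblastoma family of pocket proteins, which releases E2F factors. Free E2F activates S-phase genes and the E-type cyclins, which bind CDK2 and complete the step. The inhibitor p27 (Cdkn1b) acts mainly on cyclin E and CDK2, p18 (Cdkn2c) binds CDK4 and CDK6, and p107 (Rbl1) holds back E2F-driven transcription while being itself an E2F target. Adult hepatocytes are mostly quiescent, and cyclin D1 induction is a well-known early event when they re-enter the cycle after injury. E2f7 and E2f8, the deleted genes, encode E2F factors that repress transcription.

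On mm10 (GRCm38, annotation GENCODE vM21), Ccnd1 lies at chr7:144929931-144939925, Ccnd2 at chr6:127125162-127152193 and Ccnd3 at chr17:47505051-47599691. Cdk4 lies at chr10:127063534-127067920 and Cdk6 at chr5:3341485-3531008. Ccne1 lies at chr7:38097984-38107534 and Ccne2 at chr4:11191351-11204779. Cdkn1b lies at chr6:134920401-134925513, Cdkn2c at chr4:109660876-109667189 and Rbl1 at chr2:157145893-157204534. All are protein-coding genes, and a count sums the reads on all exons of a gene, UTRs included. Ccne2 shares 609 exon bases (17.4% of its exons) with Ints8 on the opposite strand, and Ccnd3 shares 361 with Bysl. Ccnd1 shares 1100 (23.4%) with LTO1 and Cdk4 641 (19.7%) with Tspan31, also on the opposite strand. Ccnd2 and Cdk6 share at most 3.95% with any antisense gene. LTO1 is not in the count files under this name, so its reads on the shared stretch could be counted as Ccnd1. In the count column used, which disregards strand and drops reads that fall on 2 genes, Ccne2 kept a median of 12.5% (2.86% to 30.9%) of the reads seen in the stranded columns, and Ccnd3 68.7% (52.5% to 78.7%). The other 8 genes kept at least 98.8%. Values of Ccne2 thus rest on 1 to 45 reads per library and those of Ccnd3 on part of its reads.

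Reads on genes ranged from 12665686 to 19499897 per library (median 16500386), and 3 counts, taken as the lowest detectable level, corresponded to 0.154 to 0.237 CPM (counts scaled to a common library size with TMM factors). This floor covers counting error only. The 6 hepatocyte markers were present in every library, with a summed level of 43400 to 127000 CPM. Summed markers of dividing cells stood at 14.5 to 32.1 CPM in the 14 mice at 0 h and at 150 and 156 CPM at 48 h and 267 and 309 CPM at 72 h in the LKO and control pools. E2f8 counts over the whole gene were higher in LKO than in control after APAP (log2 difference 1.53, edgeR adjusted p = 0.0237). At 0 h they were higher in HKO (1.5, adjusted p = 0.0773) and in LKO (0.63, adjusted p = 0.999) without passing the test. Because reads on the exons that remain after deletion are counted too, these values do not check the deletion. E2f7 had few reads, at most 4.32 CPM.

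Before APAP, CDK4 RNA was the most abundant of the set. Per kilobase of exon, Cdk4 stood at 11.7 ± 1.21 CPM in the 4 control mice (SD, n = 4), above every value of the next gene. Cdkn1b (5.71 ± 0.616), Ccnd1 (5.32 ± 1.03) and Ccnd3 (4.63 ± 0.576) followed, and neighbours in this order overlapped. Below a gap came Cdkn2c (1.55 ± 0.587), Ccne1 (1.03 ± 0.382) and Ccnd2 (0.93 ± 0.117), again with overlap between neighbours. Rbl1 (0.353 ± 0.162), Ccne2 (0.223 ± 0.104) and Cdk6 (0.222 ± 0.102) were lowest and did not differ beyond their spread, with the level of Ccne2 understated by the reads lost at Ints8. In the sum of both stranded columns, chosen after seeing the data, which regains the lost reads and can add those of Bysl or Ints8, Ccnd3 stood at 6.68 ± 0.872 and came second, and Ccne2 at 1.73 ± 0.719. The RNAs of Cdkn1b, Ccnd1 and Ccnd3 overlapped in level by either column, and Cdk6 was last in both.

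Whether loss of E2f7 and E2f8 altered this set in resting liver was tested at 0 h in both models. In LKO against control, none of the 10 genes passed edgeR's quasi-likelihood test with Benjamini-Hochberg adjustment over 12426 genes (called at an adjusted p under 0.05 and a fold of at least 1.5). Of all genes, 0% were called higher and 0% lower, 352 had an unadjusted p under 0.05, and DESeq2 called 3 genes, none of the set. The values of the LKO and control mice overlapped for all 10 genes, beside 1.75% of all genes that did not overlap. Cdkn2c was the single member with an unadjusted p under 0.05. It stood at 4.37, 3.29, 2.69 and 6.28 CPM in the control mice and at 4.20, 8.82, 7.09 and 11.3 CPM in the LKO mice. LKO mice 2, 3 and 4 exceeded every control mouse, while LKO mouse 1 lay within the control range. Of the 8 mice, LKO mouse 1 also had the lowest summed hepatocyte markers (43400 CPM against 65900 to 116000) and the highest macrophage markers (312 CPM against 124 to 198), whose part in the Cdkn2c value was not tested. The log2 difference was 0.91 (SE 0.33, edgeR adjusted p = 0.999). For the other 9 genes the log2 differences lay between -0.69 (Ccne1, 95% interval -1.61 to 0.23) and 0.05 (Cdk4, -0.27 to 0.36). The interval for Ccnd1 was -0.64 to 0.62.

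In HKO against its controls none of the 10 genes was called either, beside 0.419% of 12397 genes called higher and 0.54% called lower. DESeq2 called none of the 10, and 2 of 10 had an unadjusted p under 0.05, beside 12.9% of all genes. Ccnd2 stood at 4.54, 4.69 and 4.29 CPM in the controls and at 5.87, 8.21 and 8.24 CPM in HKO mice. Every HKO mouse was above every control, with a log2 difference of 0.72 (SE 0.21, edgeR adjusted p = 0.164). Ccnd3 stood at 51.2, 51.1 and 44.5 CPM in the controls and at 41.5, 44.5 and 34.7 CPM in HKO mice, and before rounding no value overlapped (-0.28, SE 0.12, adjusted p = 0.369). These were the 2 of 10 genes without overlap, close to the 18% of all genes that did not overlap in this 3 against 3 design. Summed lymphocyte markers were 2.15 to 4.21 CPM in the controls and 4.46 to 8.78 CPM in HKO, with at most 1 of 6 markers at 0 in a library, and their part in the Ccnd2 value was not tested.

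Ccnd1 in the HKO cohort turned on 1 mouse. It stood at 11.5, 13.9 and 9.85 CPM in the controls and at 7.75, 8.21 and 48.8 CPM in HKO mice. HKO mouse 3 was above all controls and the other 2 HKO mice were below them. The log2 difference was 0.88 (SE 0.62, edgeR adjusted p = 0.636) and turned to -0.56 (adjusted p = 0.273) without that mouse. The same mouse had 0 reads on Ccne1, which allows up to 3 reads or 0.2 CPM, against 0.897 to 3.03 CPM in the controls, and the lowest Ccnd3 and Cdk4 of the cohort. For Ccne1 the log2 difference was -1.36 with a 95% interval from -3.13 to 0.40.

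**Figure D1:**
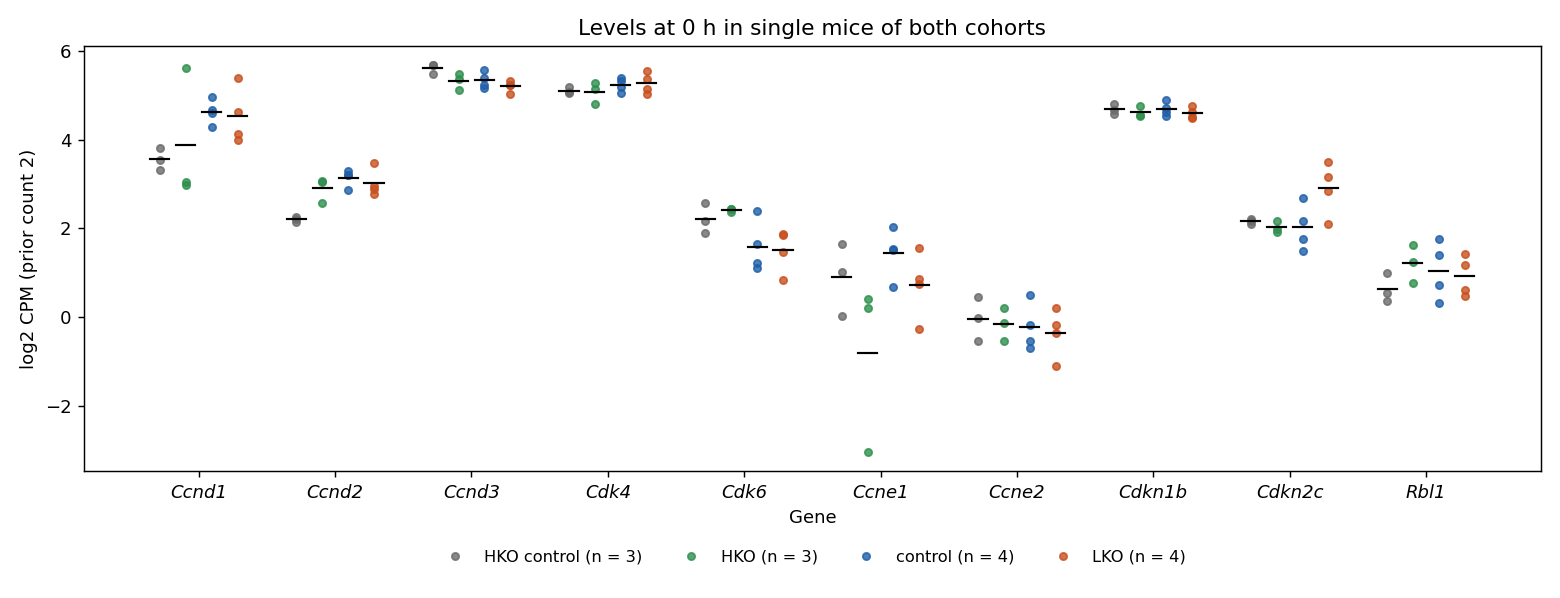
Level of each gene at 0 h on a log2 axis (CPM with a prior count of 2). Points are single mice of the 4 groups and bars are group means. Ccnd1 of HKO mouse 3 lies far above the other 2 HKO mice, the lowest Ccne1 point is that same mouse with 0 reads (its place is set by the prior count), and Cdkn2c is high in 3 of the 4 LKO mice.

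The effects of the 2 deletions were compared directly as the LKO effect minus the HKO effect. No member was called by edgeR or DESeq2 (0% of 12945 genes higher and 0% lower by edgeR, 579 at an unadjusted p under 0.05, and 21 called by DESeq2). Ccnd2 (log2 difference of the effects -0.82, SE 0.28) and Cdkn2c (1.05, SE 0.43) had unadjusted p-values of 0.0112 and 0.029, with edgeR adjusted p-values of 0.884 and 1. The cohorts also differ in virus and in age at deletion, which cannot be told apart from the model.

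After APAP the members changed at different times. At 12 h the members that changed fell, namely Ccnd2 and the inhibitors Cdkn1b and Cdkn2c. At 24 h Ccnd1 and Ccne1 rose while Ccnd2, Ccnd3 and Cdkn1b fell. At 48 h Ccne1, Cdkn2c and Rbl1 rose, at 72 h these and Ccnd1 rose, and at 96 h no member was called. Each time point was compared with 0 h over both genotypes, with 2 pools against the same 8 mice, so the 5 comparisons share their 0 h values. Each comparison gives a single change for both genotypes together, so a call does not show that each genotype changed. In edgeR's quasi-likelihood test over 13855 genes, 0 members rose and 3 fell at 12 h, beside 16.7% of all genes higher and 14.3% lower. At 24 h, 2 rose and 3 fell beside 13.9% and 11.7%. At 48 h, 3 rose and 0 fell beside 9.89% and 6.52%. At 72 h, 4 rose and 0 fell beside 11% and 5.77%. At 96 h, 0 members were called beside 0.332% and 0.13%, with Ccnd3 alone at an unadjusted p under 0.05 and called by DESeq2. The median log2 change of the 10 genes was -0.34, 0.15, 0.63, 0.74 and 0.07 at the 5 times, against medians of all genes between -0.03 and 0. Of the 15 member calls, 4 held when any 1 library was left out, namely Cdkn1b at 12 h, Rbl1 at 48 and 72 h, and Cdkn2c at 72 h. Where a pool was left out, the lone pool was assumed to vary like the other libraries.

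**Figure D2:**
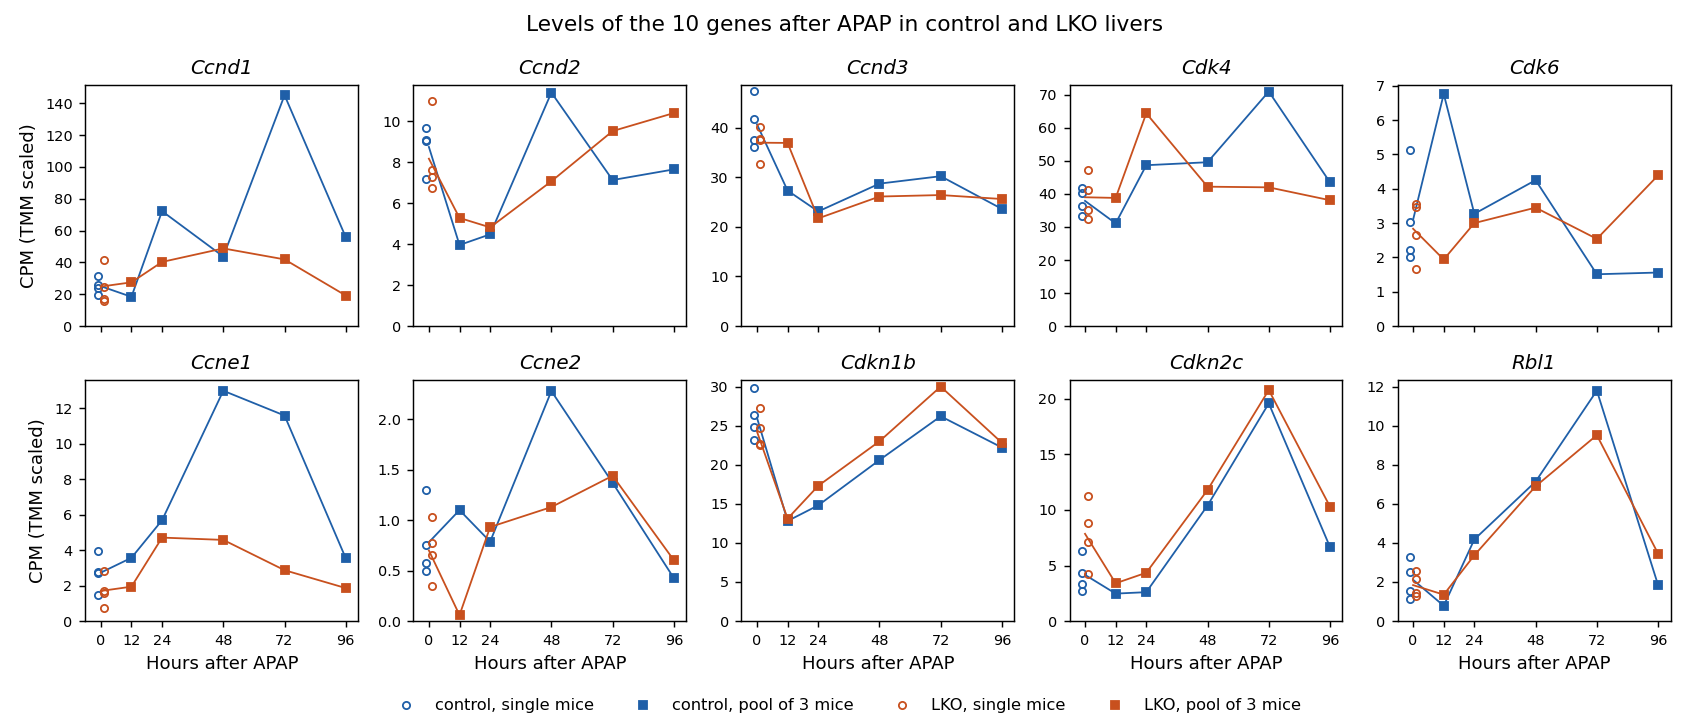
Level of each gene in CPM against hours after APAP. Open circles are single mice at 0 h, squares are pools of 3 mice, and lines join the 0 h mean to the pools. Cdkn1b and Ccnd2 dip at 12 and 24 h, Rbl1 and Cdkn2c peak at 72 h in both genotypes, and Ccnd1 and Ccne1 are far higher in the control pool than in the LKO pool at 72 h.

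Among the D-type cyclins, Ccnd1 rose at 24 h while the other 2 fell. Ccnd1 stood at 25.6, 24.1, 31.2 and 19.4 CPM in the 4 control mice and at 24.5, 15.8, 17.3 and 41.7 CPM in the 4 LKO mice at 0 h. The control pools stood at 18.4, 72.2, 43.7, 145 and 55.8 CPM from 12 to 96 h. The LKO pools stood at 27.5, 40.3, 48.8, 41.9 and 19.2 CPM. The control pools from 24 h on all exceeded every 0 h mouse of the LKO cohort. The LKO pool at 48 h exceeded all of these mice as well, and the LKO pools at 24 and 72 h lay near the highest of them. The change fitted over both genotypes was called at 24 h (log2 1.11, SE 0.38, edgeR adjusted p = 0.0366) and at 72 h (1.80, SE 0.37, adjusted p = 0.00287). The 72 h call was lost without the control pool (0.83, adjusted p = 0.437). The 24 h call was lost without either pool (0.85 and 1.36, adjusted p = 0.328 and 0.11) and without any of control mice 1, 2 and 4 or LKO mouse 3 (adjusted p from 0.0521 to 0.0589). At 48 h the value was 0.90 (adjusted p = 0.113), between 0.56 and 1.18 with a library left out, and it was called without LKO mouse 4 (1.12, adjusted p = 0.0312) and with library-size scaling (1.08, adjusted p = 0.0445). At 96 h it was 0.48 (adjusted p = 0.593) and turned to -0.29 without the control pool.

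Ccnd2, the least abundant D-type cyclin here, fell early and was back by 48 h. It stood at 9.68, 7.16, 9.09 and 9.05 CPM in control mice and at 6.75, 7.30, 11.0 and 7.64 CPM in LKO mice at 0 h. The pools stood at 3.96 (control) and 5.28 CPM (LKO) at 12 h and at 4.48 and 4.82 CPM at 24 h, all below each of these 8 mice. The 3 HKO control mice stood at 4.29 to 4.69 CPM at 0 h, within the range of these pools. Later pools lay between 7.07 and 11.4 CPM, within or just above the 0 h range. The fall was -0.84 at 12 h (SE 0.26, edgeR adjusted p = 0.0194) and -0.87 at 24 h (SE 0.26, adjusted p = 0.0193) on the log2 scale. It was no longer called at 12 h without the control pool (-0.65, adjusted p = 0.212), nor at 24 h without either pool (adjusted p = 0.166 and 0.138) or with library-size scaling (-0.73, adjusted p = 0.0634). Summed lymphocyte markers stood at 1.49 and 3.46 CPM at 12 h and 1.76 and 2.54 CPM at 24 h in the control and LKO pools, below the 3.58 to 6.22 CPM of the 8 mice, with none of 5 tested called. Endothelial markers stood at 187 and 177 CPM at 12 h and at 139 and 138 CPM at 24 h against 173 to 226 CPM, with 1 of 5 called higher and 2 lower at 24 h. Their part in the Ccnd2 values was not tested.

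Ccnd3, the D-type cyclin with most reads at 0 h, fell at 24 h. It stood at 41.8, 37.4, 36.1 and 47.3 CPM in control mice and at 40.2, 37.6, 32.6 and 37.4 CPM in LKO mice. At 12 h the control pool was at 27.3 and the LKO pool at 36.9 CPM, and from 24 h on the 8 pools lay between 21.7 and 30.2 CPM, below every mouse at 0 h. The log2 change was -0.80 at 24 h (SE 0.16, edgeR adjusted p = 0.00191), lost without the LKO pool (-0.77, adjusted p = 0.056). At 48 h it passed the adjusted p without reaching a fold of 1.5 (-0.50, adjusted p = 0.0362). At 72 and 96 h it was -0.46 (adjusted p = 0.0511) and -0.67 (adjusted p = 0.066). Only reads outside the stretch shared with Bysl enter these values.

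The make-up of D-type cyclin RNA also differed between times and cohorts. Per kilobase, Ccnd1 held 48.7% ± 7.09 of the summed D-type cyclin RNA in control mice and 49.0% ± 10.5 in LKO mice at 0 h (SD, n = 4 each). In the control pools its share was 52.5, 83.1, 67.4, 88.0 and 77.2% from 12 to 96 h. In the LKO pools it was 55.0, 74.2, 73.5, 68.9 and 50.4%. From 24 to 72 h each pool had a larger Ccnd1 share than any mouse of its cohort at 0 h (39.4 to 63.5%), and at 96 h this held for the control pool and not for the LKO pool. Ccnd3 moved the other way, from 42.8% ± 6.65 in control mice to 9.83% in the control pool at 72 h, and from 42.1% ± 8.42 in LKO mice to 23.3% in the LKO pool. In the HKO cohort Ccnd3 led, with 65.3% ± 2.19 in HKO controls (n = 3), where Ccnd1 held 29.1% ± 2.43. In HKO mouse 3 Ccnd1 held 68.2%, against 23.5 and 22.7% in the other 2 HKO mice. Shares depend on the exon length used and on the reads dropped at Bysl. In the stranded sum, Ccnd3 held 51.7% ± 6.46 and Ccnd1 41.1% ± 6.73 in control mice, and in LKO mice 51.1% ± 7.97 and 41.4% ± 9.58, so that the order of the group means turned. By library the order turned in 5 of 24, namely control mice 1 and 2, LKO mouse 1, the control pool at 12 h (50.7% and 44.5%) and the LKO pool at 96 h (45.2% and 43.1%).

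**Figure D3:**
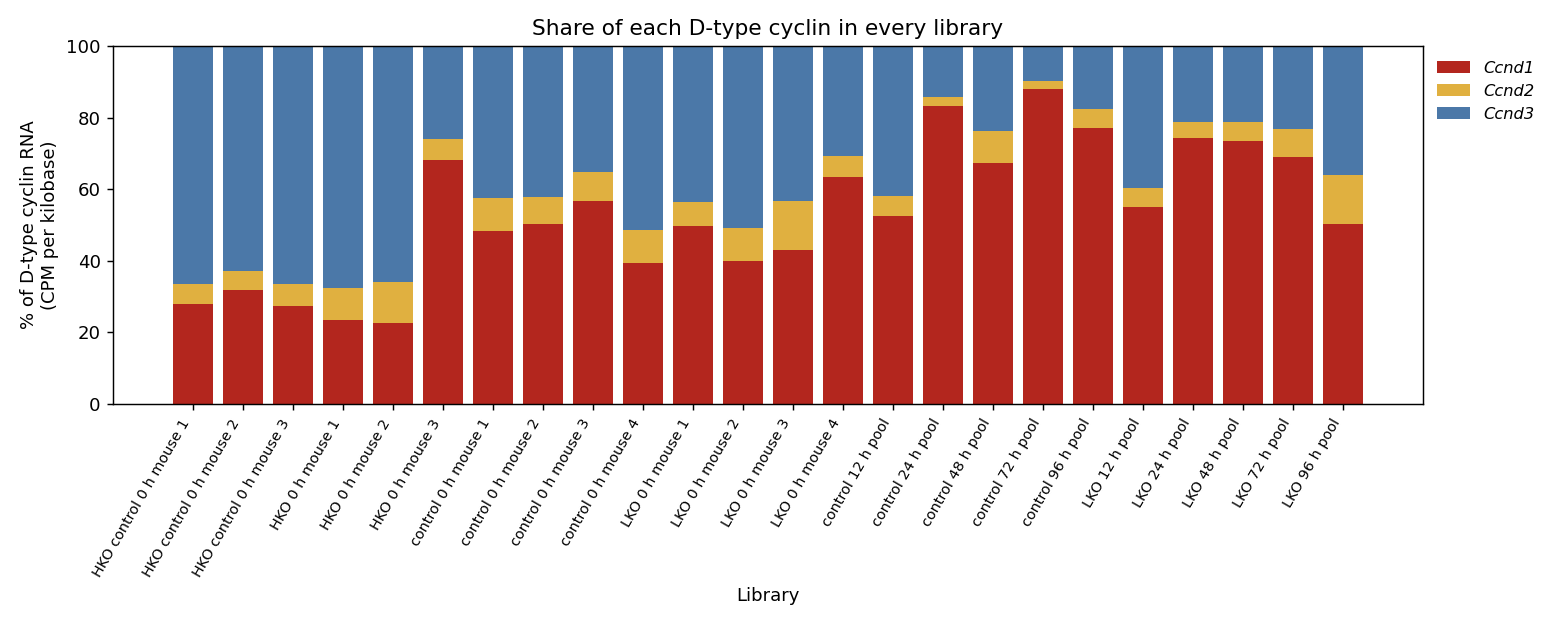
Share of Ccnd1, Ccnd2 and Ccnd3 in their summed CPM per kilobase, as stacked bars from 0 to 100% for each of the 24 libraries. Ccnd3 leads in the HKO cohort apart from HKO mouse 3, and Ccnd1 leads in the pools from 24 h on in the column used (not at 96 h in LKO in the stranded sum), up to 88.0% in the control pool at 72 h.

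Of the kinases, neither was called at any time with all libraries and TMM scaling. Cdk4 stood at 41.8, 36.4, 33.2 and 40.2 CPM in control mice and at 32.5, 41.3, 35.1 and 47.1 CPM in LKO mice at 0 h. From 12 to 96 h the control pools held 31.1, 48.7, 49.6, 71.0 and 43.5 CPM, and the LKO pools 38.8, 64.4, 42.2, 42.0 and 38.1 CPM. The LKO pool was highest at 24 h and the control pool at 72 h. The log2 change fitted over both genotypes was 0.55 at 24 h (SE 0.19, edgeR adjusted p = 0.0365) and 0.55 at 72 h (SE 0.19, adjusted p = 0.052), under a fold of 1.5 at both times. Scaled by library size alone, Cdk4 was called at both times (0.69 and 0.66, adjusted p = 0.0124 and 0.0269). With a library left out, the 24 h value ran from 0.29 (without the LKO pool, adjusted p = 0.519) to 0.78 (without the control pool, 0.0516), and it was called without LKO mouse 4 (0.60, 0.0238). The 72 h value ran from 0.08 (without the control pool, adjusted p = 0.923) to 0.92 (without the LKO pool, 0.0103), called in the latter and without LKO mouse 4 (0.59, 0.0356).

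Cdk6 was a low-count gene, with 22 to 104 reads per library. It stood at 5.13, 2.22, 2.02 and 3.02 CPM in control mice and at 1.65, 3.48, 3.57 and 2.64 CPM in LKO mice. Control pools were at 6.76, 3.27, 4.25, 1.51 and 1.56 CPM and LKO pools at 1.94, 3.00, 3.45, 2.54 and 4.39 CPM. The control pool at 12 h lay above and the control pools at 72 and 96 h below all 8 mice. The log2 changes ranged from -0.55 (95% interval -1.58 to 0.49) at 72 h to 0.56 (-0.40 to 1.51) at 12 h.

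Of the E-type cyclins, Ccne1 rose from 24 to 72 h. It stood at 2.77, 2.72, 3.96 and 1.48 CPM in control mice and at 2.82, 0.708, 1.56 and 1.70 CPM in LKO mice at 0 h. The control pools stood at 3.57, 5.69, 13.0, 11.6 and 3.54 CPM from 12 to 96 h. The LKO pools stood at 1.94, 4.71, 4.58, 2.87 and 1.86 CPM. Both pools exceeded all 8 mice at 24 and 48 h, whereas at 72 h only the control pool did. Summed cholangiocyte markers stood at 216 (control) and 87.1 CPM (LKO) at 48 h against 37.8 to 75.2 CPM in the 8 mice, and within that range at 24 and 72 h. Macrophage and stellate cell markers at 72 h, given below, were above all 8 mice. The part of these cells in the Ccne1 values was not tested. The log2 change of Ccne1 was 1.30 at 24 h (SE 0.39, edgeR adjusted p = 0.02), 1.88 at 48 h (SE 0.37, adjusted p = 0.00276) and 1.53 at 72 h (SE 0.38, adjusted p = 0.0109). Without the control pool it was no longer called at 24 h (1.65, adjusted p = 0.0501), 48 h (1.53, adjusted p = 0.128) or 72 h (0.80, adjusted p = 0.524). At 24 h it was also not called without the LKO pool (0.89, adjusted p = 0.32).

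Ccne2 was not called at any time in the count column used with all libraries. It stood at 0.492 to 1.30 CPM in control mice and 0.346 to 1.03 CPM in LKO mice at 0 h. Its level was 1.10, 0.787, 2.28, 1.37 and 0.425 CPM in the control pools and, in the LKO pools, 0.0586, 0.932, 1.13, 1.44 and 0.603 CPM. The log2 change was 1.15 at 48 h (SE 0.55, edgeR adjusted p = 0.159) and 0.93 at 72 h (SE 0.56, adjusted p = 0.269). When both stranded columns were summed, which was chosen after seeing the data and gave 35 to 258 reads per library, Ccne2 was called lower at 12 h (-1.01, adjusted p = 0.0417) and higher at 48 h (1.06, adjusted p = 0.0246) and 72 h (1.28, adjusted p = 0.00747). At 12 h the first stranded column also gave a call (-1.37, adjusted p = 0.0125), as did the column used when the control pool was left out (-3.41, adjusted p = 0.0418), where the value rests on 1 read in the LKO pool. Without the LKO pool it was 0.54 (adjusted p = 0.556). The stranded sum includes reads of Ints8 on the shared stretch, so the 2 genes cannot be told apart there.

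Among the brakes, Cdkn1b, encoding p27, fell at 12 and 24 h. It stood at 26.3, 29.8, 24.8 and 23.2 CPM in control mice and at 24.7, 27.2, 22.6 and 22.5 CPM in LKO mice at 0 h. The control and LKO pools stood at 12.8 and 13.1 CPM at 12 h and at 14.8 and 17.3 CPM at 24 h, all below every mouse. From 48 h on the 6 pools lay between 20.6 and 30.0 CPM. The fall was -0.92 at 12 h (SE 0.16, edgeR adjusted p = 0.000415), a 1.90-fold drop, and it stayed between -0.96 and -0.88 whichever library was left out. At 24 h it was -0.65 (SE 0.16, adjusted p = 0.00525) and -0.54 without the control pool (adjusted p = 0.125), and it fell short of a fold of 1.5 with library-size scaling (-0.51, adjusted p = 0.0232) and in the first stranded column (-0.57, adjusted p = 0.0203).

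Cdkn2c, encoding p18, first fell and then rose. Its 0 h levels were those given above, from 2.69 to 11.3 CPM over the 8 mice. The control pools held 2.47, 2.6, 10.4, 19.6 and 6.66 CPM from 12 to 96 h, and the LKO pools 3.40, 4.35, 11.8, 20.8 and 10.3 CPM. At 72 h both pools lay above all 8 mice, and at 12 h the LKO pool lay below all LKO mice and the control pool below all control mice. The log2 change was -0.96 at 12 h (SE 0.36, edgeR adjusted p = 0.0456), 0.95 at 48 h (SE 0.30, adjusted p = 0.0378) and 1.82 at 72 h (SE 0.29, adjusted p = 0.000263). At 24 h it was -0.78 (SE 0.35, adjusted p = 0.104). The 72 h call held without each library (1.48 to 2.12). The 12 h call was lost without either pool (adjusted p = 0.154 and 0.224), without control mice 1 or 4 or LKO mice 2, 3 or 4 (0.0558 to 0.0681), with another scaling method, RLE (0.0511), and in the first stranded column (0.0703). The 48 h call was lost without either pool (adjusted p = 0.395 and 0.0637) and without control mice 1 or 2 or LKO mouse 3 (0.0535 to 0.062).

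Rbl1, encoding p107, rose at 48 and 72 h, and at 72 h had the largest called change of the set in the fit over both genotypes. In the control pools alone the 72 h change was 2.53 for Rbl1 and 2.56 for Ccnd1 on the log2 scale. It stood at 1.12, 2.51, 3.28 and 1.54 CPM in control mice and at 2.55, 1.42, 2.13 and 1.26 CPM in LKO mice at 0 h. After APAP the control pools held 0.78, 4.18, 7.14, 11.8 and 1.84 CPM and the LKO pools 1.35, 3.37, 6.90, 9.52 and 3.45 CPM. All 6 pools from 24 to 72 h exceeded every mouse at 0 h. The log2 change was 0.93 at 24 h (SE 0.36, edgeR adjusted p = 0.0617), 1.83 at 48 h (SE 0.34, adjusted p = 0.00147) and 2.43 at 72 h (SE 0.33, adjusted p = 4.88e-05), that is 3.56-fold and 5.40-fold. Without each library in turn the 72 h value stayed between 2.23 and 2.61. At 48 and 72 h, where Rbl1 and Cdkn2c rose, all 6 markers of dividing cells were also called higher, and summed macrophage markers stood at 559 (control) and 564 CPM (LKO) at 72 h against 124 to 312 CPM in the 8 mice at 0 h, with 3 of 6 called higher. Summed stellate cell markers stood at 372 and 237 CPM at 72 h against 47 to 101 CPM at 0 h, with 4 of 5 called higher. The part of these cells in the change was not tested.

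**Figure D4:**
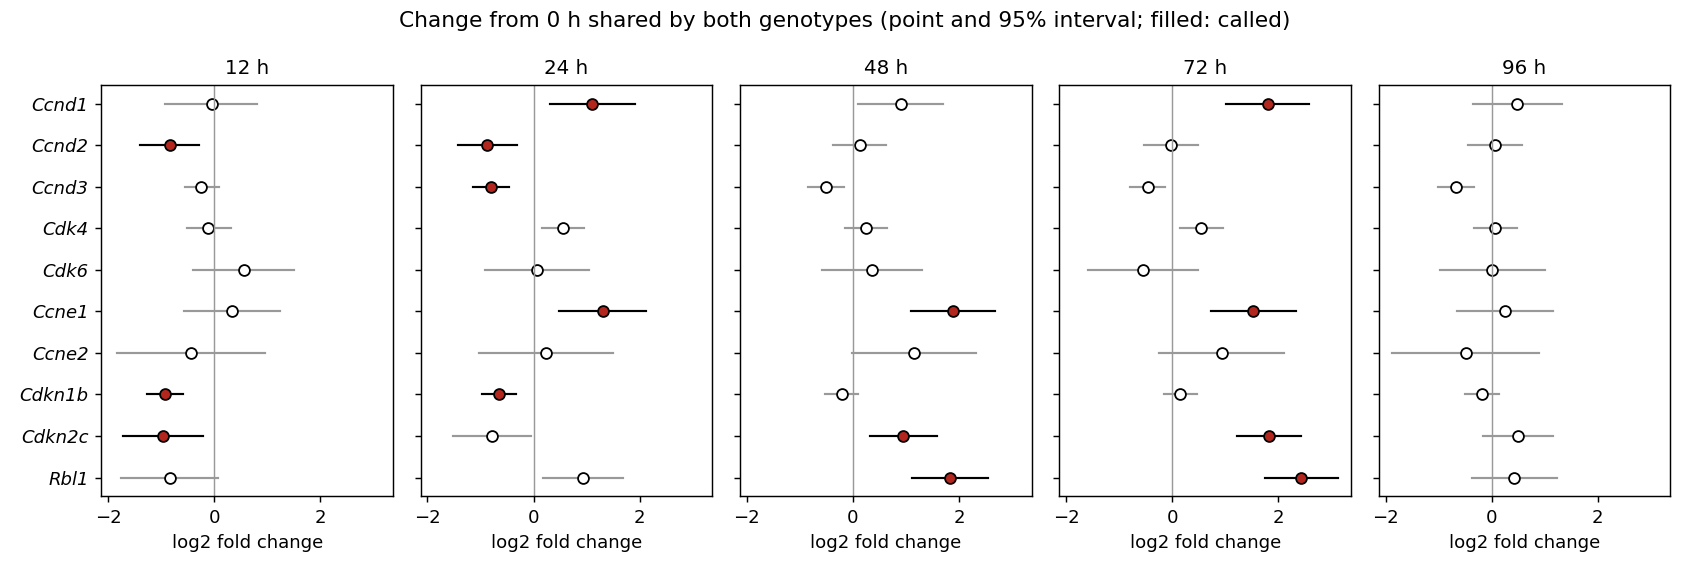
Log2 fold change from 0 h fitted over control and LKO livers together at each time point (shared in the title), with 95% intervals from edgeR's quasi-likelihood fit. Filled points passed an adjusted p under 0.05 with a fold of at least 1.5. Cdkn1b lies left of 0 at 12 and 24 h, and Ccne1, Cdkn2c and Rbl1 lie right of 0 at 48 and 72 h.

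Ccne1, Cdkn2c and Rbl1 were the members that rose at both 48 and 72 h, so the DNA just before their start sites is shown. The stretches are the 150 bases upstream of the RefSeq start site on GRCm38.p6, each on the minus strand and written 5′ to 3′ along the gene: Ccne1 at chr7:38107491-38107640, Cdkn2c (the first of 2 listed start sites) at chr4:109666757-109666906 and Rbl1 at chr2:157204535-157204684. The Cdkn2c stretch lies within, and the Ccne1 stretch partly within, the GENCODE span of the gene given above, which starts further upstream. Capitals mark a match to an E2F-type motif.
Ccne1: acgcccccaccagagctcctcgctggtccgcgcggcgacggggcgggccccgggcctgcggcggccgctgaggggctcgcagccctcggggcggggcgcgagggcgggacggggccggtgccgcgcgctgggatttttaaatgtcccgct
Cdkn2c: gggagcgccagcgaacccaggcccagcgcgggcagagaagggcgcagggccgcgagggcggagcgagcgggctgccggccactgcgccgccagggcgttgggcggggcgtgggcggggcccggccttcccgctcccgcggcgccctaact
Rbl1: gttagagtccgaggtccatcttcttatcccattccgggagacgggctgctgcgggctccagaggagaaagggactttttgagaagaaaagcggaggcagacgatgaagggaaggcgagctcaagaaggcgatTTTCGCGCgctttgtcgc
The letters searched on both strands were TTTCCCGC, TTTCGCGC, TTTGCCGC and TTTGGCGC, in windows from 250 bases before to 50 bases after a start site. The 1 match among the 7 members with a window was TTTCGCGC in Rbl1, starting at position -18 from the start site. Of all 32851 windows, 744 (2.26%) held a match. The 7 members were Ccnd3, Cdk4, Cdk6, Ccne1, Cdkn1b, Cdkn2c and Rbl1, and Ccnd1, Ccnd2 and Ccne2 were not searched.

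Whether LKO livers differed from control livers after APAP was tested over the 5 time points together, with the time point as a block. No member was called by edgeR, beside 0.25% of 12782 genes higher and 0.329% lower in LKO, and 2 of 10 members had an unadjusted p under 0.05, near the 17.9% of all genes. Ccne1 was lower in the LKO pool at 5 of 5 time points, with log2 ratios of -0.86, -0.27, -1.48, -2 and -0.90 from 12 to 96 h. The common difference was -1.15 (SE 0.28, 2.22-fold lower), with an unadjusted p of 0.00199 and an edgeR adjusted p of 0.0943. DESeq2 called it (-1.15, adjusted p = 0.0078), as did edgeR with all genes of at least 1 count (-1.14, adjusted p = 0.0374). With 1 time point left out it stayed between -1.37 and -0.91, with an edgeR adjusted p from 0.097 to 0.285. A fit that ignored the time points gave -1.25 (adjusted p = 0.764). Summed cholangiocyte markers stood at 168, 55.9, 216, 68.2 and 21.8 CPM in the control pools and at 35.8, 50.8, 87.1, 44.2 and 21.8 CPM in the LKO pools from 12 to 96 h, with 1 of 5 at 0 in the LKO pool at 12 h. Summed neutrophil markers stood at 9.03, 10.6, 23.4, 17.1 and 6.16 CPM in the control pools and at 9.68, 25.8, 6.11, 2.92 and 1.37 CPM in the LKO pools, with at most 1 of 4 at 0. Neither list had a gene called between genotypes, and their part in the Ccne1 values was not tested.

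Ccnd1 was lower in the LKO pool at 24, 72 and 96 h (log2 ratios -0.84, -1.82 and -1.54) and higher at 12 and 48 h (0.56 and 0.15). The common difference was -0.72 (SE 0.32, unadjusted p = 0.0498, edgeR adjusted p = 0.279). At 72 h the control pool held 145 CPM against 41.9 CPM in the LKO pool. With 1 time point left out the common difference ran from -1.02 (without 12 h, adjusted p = 0.173) to -0.42 (without 72 h, adjusted p = 0.615). Summed stellate cell markers stood at 372 (control) and 237 CPM (LKO) at 72 h and at 118 and 135 CPM at 96 h. Macrophage markers stood at 559 and 564 CPM at 72 h and at 377 and 158 CPM at 96 h. The neutrophil values given above were higher in control at both times and higher in LKO at 24 h, when Ccnd1 was also lower in LKO. The part of these cells in the Ccnd1 values was not tested. Cdkn1b and Cdkn2c were higher in LKO at 5 of 5 time points by small steps, with log2 ratios of at most 0.22 and 0.71. Their common differences were 0.11 (95% interval -0.20 to 0.42) and 0.38 (-0.04 to 0.80). The common difference of Rbl1 was 0.12 (-0.47 to 0.70), of Cdk4 -0.11 (-0.52 to 0.29), of Ccnd2 0.11 (-0.40 to 0.62) and of Ccnd3 0.00 (-0.33 to 0.33).

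At single time points there was 1 pool per genotype and hence no test, so members are described by a ratio of at least 2-fold. At 12 h, 0 members were 2-fold higher in LKO and 2 lower, beside 9.08% and 12.4% of 13855 genes. At 24 h there were 0 and 0 beside 3.38% and 4.99%. At 48 h there were 0 and 1, which was Ccne1, beside 7.09% and 9.78%. At 72 h there were 0 and 2, which were Ccnd1 and Ccne1, beside 6.44% and 7.09%. At 96 h there were 1 higher, Cdk6 (1.41), and 1 lower, Ccnd1, beside 6.47% and 4.71%. The 2 genes at 12 h were Cdk6 (log2 ratio -1.76) and Ccne2. Ccne2 had 1 read in the LKO pool and 17 in the control pool, a ratio of 0.0533 with an exact 95% interval of 0.00127 to 0.34 that covers counting error only. The stranded sum held 35 and 55 reads in the same 2 pools, so the LKO pool kept only 2.86% of its reads in the column used, and the ratio holds for that column alone.

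The genotype effect after APAP was compared with that at 0 h in 1 fit over the 18 libraries of the LKO cohort. No member was called by edgeR or DESeq2, and none had an unadjusted p under 0.05, beside 0% of 13328 genes called higher and 0% lower by edgeR, 1285 at an unadjusted p under 0.05 and 39 called by DESeq2. The difference of the effects was -0.69 (95% interval -1.72 to 0.33) for Ccnd1 and -0.45 (-1.56 to 0.66) for Ccne1. A larger effect after APAP than before it was therefore not shown for either cyclin.

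**Figure D5:**
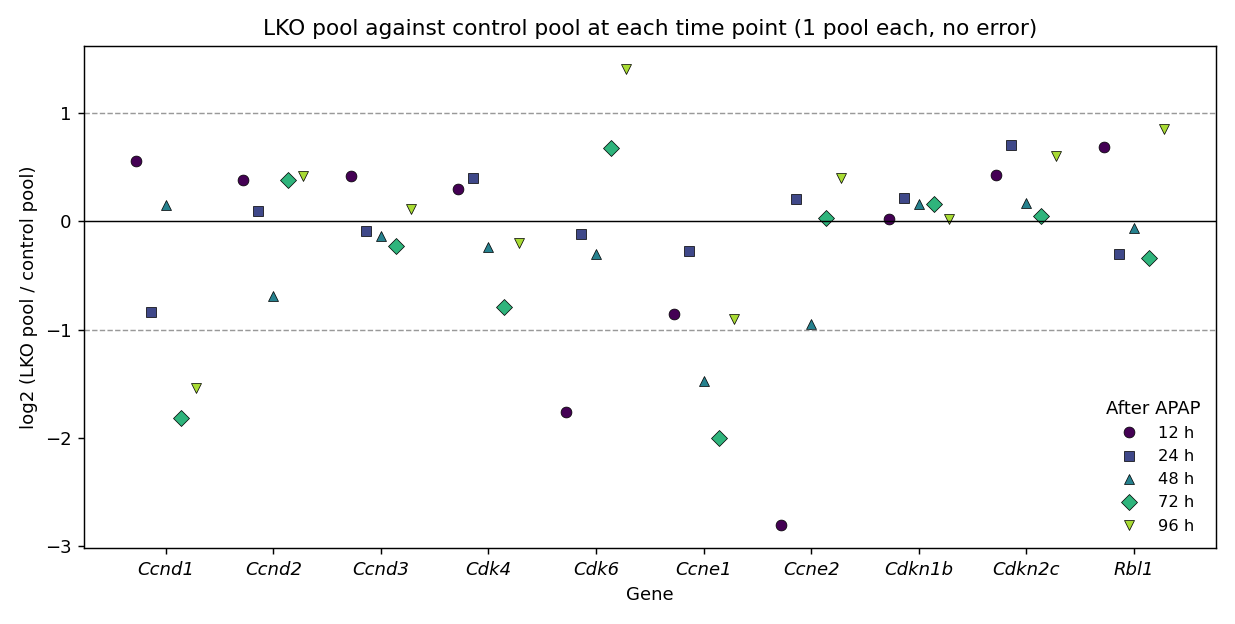
Log2 ratio of the LKO pool to the control pool for each gene at 12, 24, 48, 72 and 96 h (CPM with a prior count of 2). The dashed lines mark 2-fold. All 5 points of Ccne1 lie below 0, the lowest points of Ccnd1 are those at 72 and 96 h, and Ccne2 at 12 h rests on 1 read in the LKO pool.

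The other genes of the G1/S step were read from a list of 25, comprising 6 kinases, cyclin partners and activators, 5 CDK inhibitors, 10 pocket proteins and E2F factors, and 4 parts of the ubiquitin ligases that turn over p27 and cyclin E. edgeR called none between genotypes in either cohort, nor at 96 h. At an unadjusted p under 0.05 there were 3 of 21 tested in HKO (all genes 12.9%), 0 of 23 in LKO at 0 h (2.83%), 4 of 23 in LKO over 12–96 h (17.9%) and 6 of 24 at 96 h (15.4%). DESeq2, read for this list after seeing the data, called 2 over 12–96 h, where it called 4.74% of all genes, and 0 in the other 3 comparisons. These were Cdkn1a, lower in LKO (-1.44, edgeR adjusted p = 0.0682), and Rbl2, higher in LKO (0.71, adjusted p = 0.0824). Of the 24 that passed the filter, 16.7% rose and 16.7% fell at 12 h (4 each), near the 16.7% and 14.3% of all genes. At 24 h 16.7% rose (4) and 4.17% fell (1), against 13.9% and 11.7%, and at 48 h 16.7% rose (4) and 0 fell, against 9.89% and 6.52%. At 72 h 25% rose (6) and 0 fell, against 11% and 5.77%. The p53 target Cdkn1a, encoding the inhibitor p21, rose by 4.87 on the log2 scale at 12 h (edgeR adjusted p = 0.000333), while Cdkn1b fell. The rise fitted over both genotypes was 4.10 at 24 h and 3.46 at 48 h. At 48 h Cdkn1a stood at 204 CPM in the control pool and 35.2 CPM in the LKO pool. The INK4 inhibitor Cdkn2b rose by 3.37 at 12 h (adjusted p = 0.0025), when Cdkn2c fell. It had 0 to 4 reads in the 8 mice at 0 h, at or near the floor, so the size of its rise is uncertain. At 12 h it had 41 reads in the control pool and 9 in the LKO pool. Cdkn2b passed the filter only in fits that join the 0 h mice and the APAP pools. The INK4 inhibitor Cdkn2d rose by 1.67 at 72 h (adjusted p = 0.000263), when Cdkn2c rose. E2f2 fell by 2.44 at 12 h (adjusted p = 0.0105) and rose by 1.61 at 72 h (adjusted p = 0.0178), and the pocket protein gene Rbl2 fell at 12 h (-0.84, adjusted p = 0.015) and 24 h (-1.55, adjusted p = 0.000553). Cdc25a, the phosphatase that activates CDK2, rose by 1.03 at 24 h beside Ccnd1 and Ccne1. At 48 and 72 h the rises of Ccne1 and Rbl1 went with those of Ccna2, the S-phase cyclin A2 (3.86 and 4.90, adjusted p = 4.5e-06 and 1.13e-07), E2f1 (1.43 and 2.22) and Skp2, which marks p27 for destruction (1.25 and 1.86). Ccna2, like Ccne2, had few 0 h reads in the column used, with 3 to 19 in the 8 mice against 59 to 126 in the stranded sum. In the stranded sum, chosen after seeing the data, the changes were 2.18 (4.52-fold) and 2.89 (7.4-fold), with a call at 24 h already (1.46, 2.75-fold, adjusted p = 0.000333). E2f5 at 24 h (0.94, adjusted p = 0.00921) was likewise called in that sum and not in the column used. That sum can add reads of a gene on the opposite strand. Such overlaps were not examined for Ccna2 and E2f5, so these values may not be theirs alone. The median log2 change of the 24 listed genes that passed the filter was 0, 0.25, 0.34, 0.44 and 0 from 12 to 96 h.

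Profiles over the 12 genotype and time groups of the LKO cohort, scaled to mean 0 and SD 1, were compared by root-mean-square distance, as a description over points that share their libraries. Rbl1 was nearest to Brca1 (0.152) and Spdl1 (0.192), and Cdkn2c to Dse (0.206) and E2f1 (0.248). Cdkn1b was nearest to Ppm1k (0.301) and Cbx5 (0.316), Ccne1 to Phlda3 (0.304) and Cyp21a1 (0.346), and Ccnd1 to Sh3bgrl3 (0.334) and Dynll1 (0.419). The neighbours were Selenbp1 and Dtx3 for Ccnd2 (0.433 and 0.434), Pigt and Car15 for Ccnd3 (0.386 and 0.451), Adora2b and P3h4 for Cdk4 (0.39 and 0.416), Arv1 and Sos2 for Cdk6 (0.419 and 0.445), and F2r and Cnot7 for Ccne2 (0.287 and 0.393). Within the set, Cdkn1b and Cdkn2c (0.59), Ccnd1 and Cdk4 (0.6) and Cdkn2c and Rbl1 (0.62) had the closest profiles, and Cdk6 and Ccnd1 the most distant (1.7). Over the 18 single libraries only P3h4 for Cdk4, Cyp21a1 for Ccne1 and Ppm1k for Cdkn1b stayed among the nearest 2.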

How the data were processed

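Whole-liver RNA-seq from 24 mouse libraries was analyzed. Reads had been trimmed (Trimmomatic) and mapped to mm10 (STAR), and the authors deposited raw read counts per gene, not normalized, in 1 column that disregards strand and 2 stranded columns. The annotation version was not given in the sources used here. The column that disregards strand was used. Its 4 entries that name no gene (18.7% to 39.9% of reads) were left out. Groups followed the sample labels, and no 2 libraries were identical.

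Tests on the counts were run with edgeR 4.0.16 under R 4.3.3 (filterByExpr, TMM, quasi-likelihood F-test, Benjamini-Hochberg adjustment over all genes tested, 2-sided), and all 10 genes passed the filter in each fit. Genes with an adjusted p under 0.05 that changed 1.5-fold or more were called. At 0 h, each knockout was set against its own controls. After APAP, LKO was set against control, blocked by time point, and each time point against 0 h with genotype as a term. Effects were also compared with each other. The pools of 3 mice were assumed to vary like single mice. The labels give separate mice at 0 h. CPM values were scaled by TMM over all libraries, and log2 values used a prior count of 2. Lengths and positions came from GENCODE vM21 (GRCm38), which held 95.8% of the symbols and all 10 genes. Promoter windows came from RefSeq.

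The genes, lists and rules were chosen with earlier results of these data known. Named genes were the 10 members, E2f7 and E2f8, of the list of 25 at most the 5 called genes with the largest change per comparison, and the 2 nearest profiles per member. Alternatives were DESeq2 1.42.0, RLE or library-size scaling, a minimum of 1 count or of 10 counts in every library, a stranded column, both stranded columns summed (added after seeing the data), no limit on the fold, other blocks, and leaving out each library or time point. The fits were tested on simulated data with 200 changed genes. Of 2-fold changes they found 67% in HKO and 56% in LKO at 0 h, 60% over 12–96 h and 37% at 72 h. They found 24% for the LKO effect after APAP minus that at 0 h, and 35% for the LKO minus the HKO effect. Of 4-fold changes they found 73% to 96%. A 2-fold change in a member can thus be missed.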

Additional observations from a re-analysis of the deposited data

How the results depend on the processing

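With DESeq2, 1 member was called between LKO and control over 12–96 h and 1 at 96 h, in place of 0, and with genes of at least 1 count 1 was called over 12–96 h. Leaving out 1 library at a time, the number of members called ranged from 2 to 3 at 12 h, 1 to 6 at 24 h, 1 to 4 at 48 h and 2 to 5 at 72 h, and was 0 at 96 h and in the genotype comparisons at 0 h. Over 12–96 h, where both pools of a time point were left out together, it was 0 as well. The shares of all genes called in these fits are not given here, so these ranges do not single out the members. Among the member values examined one by one, the log2 change reversed for Ccnd1 in HKO (range -0.56 to 1.28, negative without HKO mouse 3), Ccnd1 at 96 h (-0.29 to 1.02, negative without the control pool) and Ccne2 at 12 h (-3.41 to 0.54, positive without the LKO pool). None was called in the main test. Ccne2 at 12 h was called without the control pool (-3.41, adjusted p = 0.0418), in the first stranded column (-1.37, 0.0125) and in the stranded sum (-1.01, 0.0417). Over all 70 member results with an unadjusted p of 0.05 or more, the sign reversed in 61 of 672 fits that left out a library or time point and in 26 of 581 other fits. Of the 15 member calls, none reversed under any alternative and 4 held under all. The Ccnd1 share of D-type cyclin RNA without length correction was 33.7% in control, 34.2% in LKO and 18% in HKO control mice. Library-size scaling shifted the all-gene median by 0.14 (24 h), 0.20 (48 h) and 0.13 (LKO against control, 0 h). It moved all-gene calls from 1928 higher and 1621 lower to 2509 and 1116 at 24 h, from 1370 and 904 to 2201 and 496 at 48 h, from 1527 and 800 to 1738 and 415 at 72 h, from 52 and 67 to 76 and 58 in HKO, and from 32 and 42 to 30 and 12 over 12–96 h. The cause of these shifts was not tested.

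The replicate block, which used the mouse number, left 0 members called in LKO at 0 h (Cdkn2c 0.90, adjusted p = 0.995), in HKO (Ccnd2 0.71, adjusted p = 0.166) and in the difference between the effects. Deviations of same-numbered mice from the group means correlated at -0.38, -0.19, 0.10 and 0.22 in the LKO cohort and 0.20, -0.03 and 0.10 in the HKO cohort. The labels do not say that the mice are paired, and with 3 or 4 mice per group these values cannot settle it.

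All-gene calls differed by tool, with 606 by DESeq2 and 337 with at least 1 count against 74 over 12–96 h, 331 against 119 in HKO, and 338 against 64 at 96 h. Each time point rests on 2 pooled libraries.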
